A study of Drosophila melanogaster with 4 samples.

Results

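The regions described here are the H4K16ac-enriched regions of chromosome 4 and of the heterochromatin scaffolds of Drosophila melanogaster. They were chosen by sequence name alone, as every deposited region on 4, 2LHet, 2RHet, 3LHet, 3RHet, XHet, YHet or U. This gave 326 of the 6550 regions of the combined list, 105 of 3397 in ChIP replicate 1 and 52 of 2202 in ChIP replicate 2. The 8 sequences add up to 20.7 Mb, of which U makes 10.0 Mb and chromosome 4 makes 1.35 Mb.

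The study sequenced chromatin immunoprecipitated with an antibody to histone H4 acetylated on lysine 16, with 2 ChIP and 2 input samples. All 4 came from formaldehyde-fixed wild-type Oregon-R embryos aged 14 to 16 h, with no other genotype or treatment. The labels give neither the sex of the embryos nor whether the replicates were separate collections, so the spread between them may be technical. Values below come from the authors' region lists, in which each region has a start, an end and 1 positive score without a stated unit. The files hold no read counts, so depth is unknown, and scores serve only to rank regions within a list.

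In flies, H4K16ac is deposited by the acetyltransferase MOF. As part of the MSL complex MOF acts along the single X of males, and as part of the NSL complex it acts at promoters of active genes on all chromosomes. The mark opens nucleosome arrays and is usually scarce in pericentric heterochromatin, where HP1a and methylated H3K9 prevail. Chromosome 4 is the small dot chromosome: it carries active genes inside HP1a-rich chromatin and is bound by its own chromosome-wide protein, POF. The Het sequences are scaffolds assigned to the heterochromatin of a chromosome or chromosome arm. U is an artificial join of scaffolds with no assigned chromosome, so a position on U has no place in the genome.

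XHet was the most densely covered, with 19.9% of its bases inside regions in replicate 1 and 11.7% in replicate 2. Chromosome 4 followed with 4.79% and 1.89%. The other sequences had less than 2% in each replicate. The lower value of XHet lay above the higher value of chromosome 4, so these 2 sequences did not overlap between replicates.

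Within each replicate chromosome 4 was covered slightly more than 2L, 2R, 3L and 3R pooled (the autosomal arms below), which had 3.91% in replicate 1 and 1.57% in replicate 2. The ratio was 1.22 in replicate 1 and 1.21 in replicate 2, although its mean coverage of 3.34% ± 2.05 (SD, n = 2) carried a wide error. Replicate 1 held 2.53 times the covered bases of replicate 2 on chromosome 4 and 2.49 times on the autosomal arms. The replicates thus differed in how much was listed on both, while the order between chromosome 4 and the pooled arms was the same. Single arms lay on both sides: 2R had 4.84% in replicate 1 and 1.95% in replicate 2, above chromosome 4 in each. For bases found in both replicates this order was lost, with 1.15% on each side and a ratio of 0.997. With the lower-scored regions of each list left out (below its median score) it turned, with a mean ratio of 0.332. Replicate 2 then had no region left on chromosome 4. In replicate 1, with 5 left, chromosome 4 also lay below the pooled arms.

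In each replicate the arms exceeded the scaffolds of chromosomes 2 and 3. Together, 2LHet, 2RHet, 3LHet and 3RHet had 1.27% of their 8.73 Mb inside regions in replicate 1 and 0.518% in replicate 2, a mean of 0.895% ± 0.533 (SD, n = 2). The ratio to the autosomal arms was 0.325 and 0.330. Among the 4 scaffolds, 3LHet had 1.79% and 0.964%, 2LHet 1.78% and 0.963%, 2RHet 1.21% and 0.266%, and 3RHet 0.757% and 0.329%. 2LHet and 3LHet were nearly equal in each replicate. 2RHet ranked above 3RHet in replicate 1 and below it in replicate 2, so these neighbours had no stable order.

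U and YHet carried the least. U had 0.337% of its bases inside 20 regions in replicate 1 and 0.0822% inside 5 regions in replicate 2. YHet had no region in either replicate, and the combined list placed 2 regions there. How much of each scaffold can be mapped by unique reads was not examined, so low coverage is no sign that the mark is absent.

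**Figure D1:**
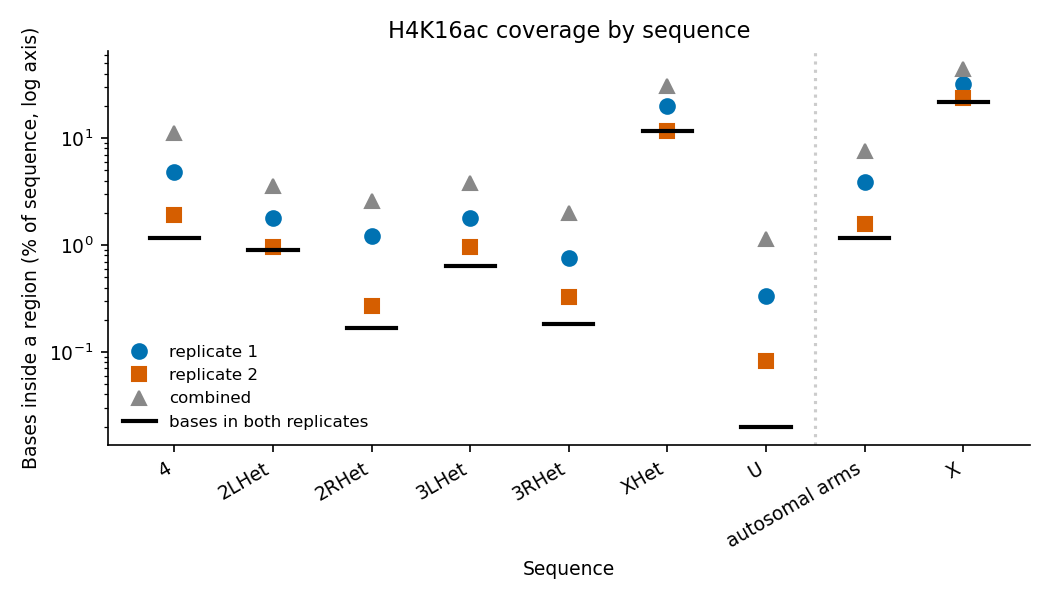
Bases inside H4K16ac regions, as percent of each sequence on a log axis, for replicate 1 (circles), replicate 2 (squares), the combined list (triangles) and bases in both replicates (bars), with the autosomal arms and X for comparison. XHet lies between 11.6% and 30.8%, above chromosome 4 by each of the 4 measures, and U is lowest; YHet, with 0 in both replicates, is left out.

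On chromosome 4 the mark lay in narrow regions spread over most of the chromosome. Replicate 1 listed 32 regions with a median width of 1866.5 bp, and replicate 2 listed 14 with a median of 1836.5 bp. The mean of the medians was 1851.5 bp ± 21.2 (SD, n = 2), against 1791.5 bp ± 118 (SD, n = 2) on the autosomal arms, a gap within the spread between replicates. The widest regions measured 3353 bp in replicate 1, from 486132 to 489484, and 2907 bp in replicate 2, from 78886 to 81792. No chromosome 4 region reached the size of the X blocks, whose widest measured 55984 bp in replicate 1.

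Most scores on chromosome 4 lay in the lower part of each list, as did those of the autosomal arms. In replicate 1, 5 of 32 regions (15.6%) scored above the list median, and in replicate 2 none of 14 did. For the autosomal arms it was 28.6% and 12.9% of regions, and for X 80.0% and 75.5%. Median percentiles within the list were 25.3 (replicate 1) and 25.9 (replicate 2), against 32.6 and 22.5 on the arms. By the median, chromosome 4 thus stood below the arms in replicate 1 and above them in replicate 2.

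The replicates shared 10 stretches of chromosome 4, with 15.6 kb in all. Of the replicate 2 regions 9 of 14 touched replicate 1, against 82.7% of the whole replicate 2 list, and of the replicate 1 regions 9 of 32 touched replicate 2, against 43.6% of the whole replicate 1 list. The corresponding autosomal values were 75.8% and 33.9%. The Wilson 95% interval for 9 of 14 ran from 38.8% to 83.7%, so these counts cannot separate chromosome 4 from the arms. Intervals here cover counting error only.

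The shared stretch with the greatest width ran from 78886 to 81792 (2907 bp). The Jaccard index of its 2 regions, shared bases over joint bases, was 0.868, but the score stood at percentile 40.9 in replicate 1 and 11.1 in replicate 2. The next, from 578096 to 580131 (2036 bp), had a Jaccard index of 0.878 and stood at percentiles 52.0 and 35.8. These were the highest Jaccard indices among the shared stretches of chromosome 4. A stretch from 1048422 to 1050269 (1848 bp) opened a group of 3, followed by stretches from 1050428 to 1050719 (292 bp) and from 1051920 to 1053129 (1210 bp). The combined list joined this group into its widest chromosome 4 region, 6293 bp from 1047770 to 1054062, at percentile 84.0 of the list.

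The region from 149366 to 150941 (1576 bp) had percentiles of 38.3 in replicate 1 and 6.02 in replicate 2. From 466417 to 467930 (1514 bp) they were 11.3 and 12.0, and from 486415 to 487851 (1437 bp) 29.4 and 8.11. From 213170 to 214585 (1416 bp) the score was the highest of chromosome 4 in replicate 1, at percentile 85.5, but stood at 13.4 in replicate 2. The last stretch, from 1083282 to 1084608 (1327 bp), had percentiles of 12.7 and 25.6. Over the 10 stretches Spearman's rho between the replicate scores was 0.174, a description without a test, since 3 of the stretches share a region.

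Along the chromosome, cut into 10 bins of equal length, replicate 1 was densest in bin 8 at 9.62% and in bin 2 at 8.34%. Replicate 2 was densest in bin 5 at 4.24%, then bin 2 at 3.58% and bin 8 at 3.37%. Bins 2 and 8 were thus among the 3 densest of each replicate. Replicate 2 had no bases in bins 3, 7 and 10, where replicate 1 had 2.82%, 4.42% and 1.37%. The longest gap of replicate 1, 186 kb from 701944 to 887677, held a single replicate 2 region, from 724051 to 725463. The region of 1413 bp stood at percentile 49.7 of replicate 2 and touched no combined region.

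**Figure D2:**
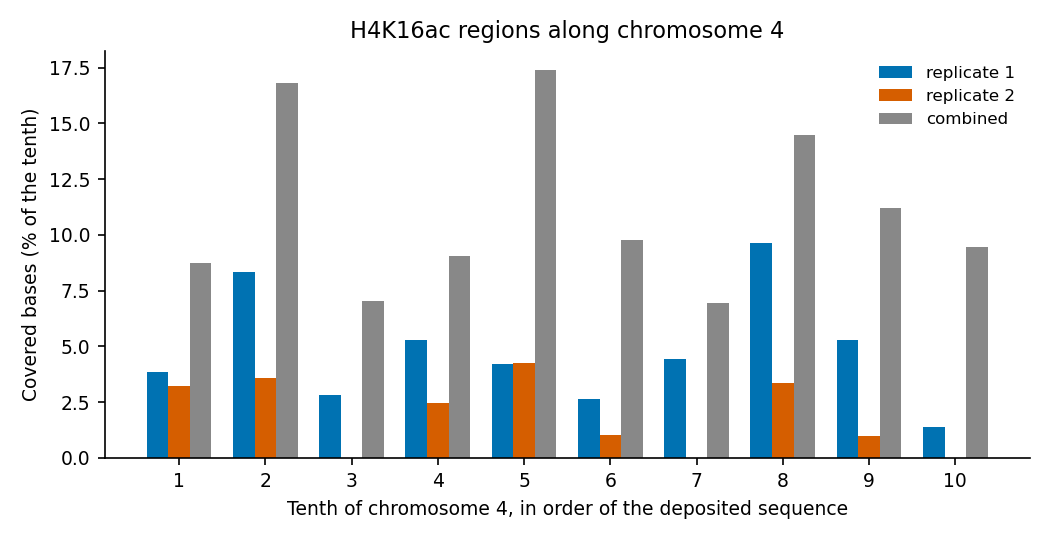
Percent of each of 10 equal bins of chromosome 4 inside regions of replicate 1, replicate 2 and the combined list. Replicate 1 peaks in bin 8 (9.62%) and replicate 2 in bin 5 (4.24%), and replicate 2 has no bases in bins 3, 7 and 10.

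Both ends of chromosome 4 were bare in the replicate lists. Each list also had a longer gap inside the chromosome, of 186 kb in replicate 1 and 323 kb in replicate 2. The first replicate region started at 76998, and the last ended at 1237109, which leaves 115 kb at the far end without a region of either replicate. In this end window, chosen after its values were seen, the combined list had 5 regions that touched neither replicate. Their scores ran from 0.440 to 1.31 with a median of 0.659, against a median of 0.410 over the other 76 combined regions of chromosome 4. The highest elsewhere was 0.650. The 5 regions included the chromosome's top score of 1.31, at 1314334 to 1315808. The rest of the 5 were 1300 bp wide or less, so the comparison of medians mixes width classes. Over all combined regions of chromosome 4 the median score was 0.453 at 1300 bp or less and 0.407 over 1300 bp.

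Most covered bases of XHet lay in 1 block. Replicate 1 listed a region of 30884 bp, from 56659 to 87542, at score percentile 88.6. It held 76.2% of all covered bases of XHet in that replicate. Replicate 2 listed 7 regions over the same stretch, covering 22.5 kb of a 30.0 kb span, and these held 94.3% of its covered bases. The combined list gave a single region of 32615 bp from 56494 to 89108, at percentile 94.3.

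The 7 pieces of replicate 2 were separated by gaps of 541 to 3437 bp, with a median of 592.5 bp. The pieces ran from 56584 to 59481, 60055 to 64805, 66536 to 72078, 75516 to 79337, 79922 to 81945, 82487 to 83934 and 84536 to 86571. The highest scored piece began at 75516 and stood at percentile 87.2 of replicate 2, and the lowest began at 84536 and stood at 26.0. The widest piece measured 5543 bp. Whether the mark was continuous there or broken cannot be told from region lists.

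Outside the block the replicates had little in common on XHet. They shared 1 further stretch, from 3703 to 4996 (1294 bp), with a Jaccard index of 0.943. Its score stood at percentile 25.1 in replicate 1 and 70.1 in replicate 2. Replicate 1 had 5 more regions. The 2 beyond the block, from 94051 to 95970 and from 126503 to 127921, were its highest scored on XHet at percentiles 97.5 and 93.4, and replicate 2 had no region there. Outside the block 5.62% of XHet was covered in replicate 1 and 0.790% in replicate 2, whereas the whole of XHet had a mean of 15.8% ± 5.77 (SD, n = 2). Chromosome 4 had 4.79% and 1.89%, so XHet without the block lay above it in replicate 1 and below it in replicate 2. In the combined list 17.7% was covered outside the block, against 11.1% of chromosome 4. The ratio of XHet to X was 0.618 in replicate 1 and 0.495 in replicate 2.

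**Figure D3:**
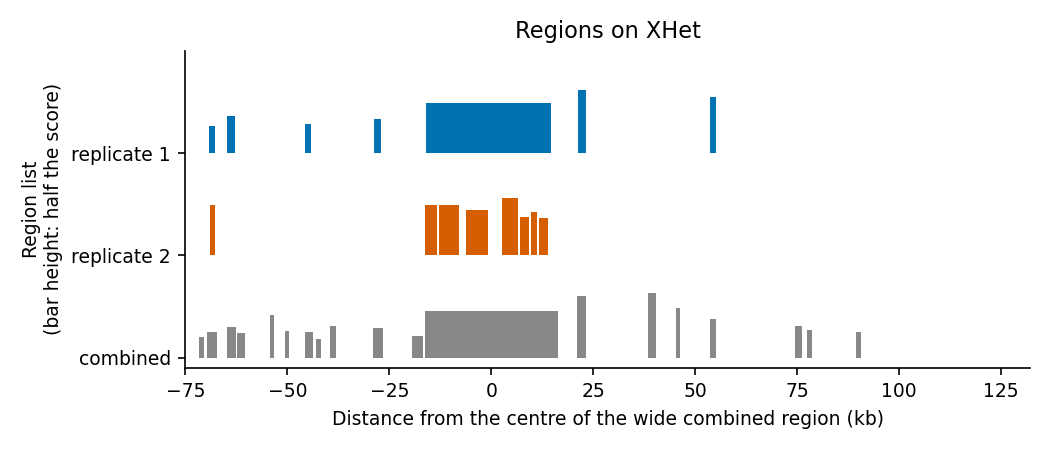
Regions on XHet in replicate 1, replicate 2 and the combined list, by distance in kb from the centre of the widest combined region; bar height scales with the deposited score, which is comparable only within a list. The single block of 30.9 kb in replicate 1 lies over 7 pieces in replicate 2.

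The scaffolds of chromosomes 2 and 3 carried 46 regions in replicate 1 and 25 in replicate 2. Their median widths were 2012 bp and 1772 bp, a mean of 1892 bp ± 170 (SD, n = 2). Within each replicate they lay above the 1875 bp and 1708 bp of the autosomal arms, though the ranges across replicates overlapped. The median score percentile of the pooled scaffolds was 43.7 in replicate 1 and 39.2 in replicate 2. This was above the 32.6 and 22.5 of the autosomal arms within each replicate. 3RHet alone went the other way in replicate 1, at 25.1, and stood at 25.3 in replicate 2. 2LHet, 2RHet and 3LHet each lay above the arms in each replicate. In all, 17 replicate 2 regions touched replicate 1 and 16 replicate 1 regions touched replicate 2. These were 68.0% and 34.8%, against the 82.7% and 43.6% given above for the whole lists.

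3LHet held most of what the replicates shared on these scaffolds, with 9 stretches over 16.4 kb. Its widest shared stretch ran from 605840 to 608180 (2341 bp) at percentiles 56.1 in replicate 1 and 38.1 in replicate 2. On 2RHet it ran from 1335676 to 1337637 (1962 bp) at 78.1 and 24.7. On 3RHet it ran from 1807327 to 1809347 (2021 bp) at 71.3 and 25.3, and on 2LHet from 167812 to 169504 (1693 bp) at 49.0 and 23.5. Each of these 4 stretches stood higher in the list of replicate 1 than in that of replicate 2. Over all 17 shared stretches of the 4 scaffolds this held for 11.

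The best matched pair of all 36 shared stretches was also on 3LHet, from 708714 to 710451. Its borders differed by 10 bp at the start and 28 bp at the end, yet its score stood at percentile 1.74 of replicate 1 and was the lowest of the whole replicate 2 list, at 0.356. It was singled out after its values were seen.

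The widest region of the replicates on each scaffold showed the same narrow scale. In replicate 1 it measured 4382 bp on 3LHet from 456991, 4367 bp on 3RHet from 1704498, 3968 bp on 2RHet from 3196021 and 3736 bp on 2LHet from 167812. In replicate 2 it measured 2553 bp on 3LHet from 591400, 2021 bp on 3RHet, 1973 bp on 2RHet from 2826726 and 1936 bp on 2LHet from 167569. In the combined list the widest were 5377 bp on 2RHet from 3195308, 4683 bp on 3LHet from 2391642, 4493 bp on 3RHet from 1704458 and 4331 bp on 2LHet from 167614. All of these were narrower than the XHet block.

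Regions left long stretches of these scaffolds free. All 8 replicate 1 regions of 3RHet lay between 1704498 and 1936495, a window of 232 kb that makes up 9.22% of the scaffold. Of the 5 replicate 2 regions 3 lay in that window, with 63.1% of the covered bases of 3RHet, and so did 10 of 31 combined regions, which leaves 21 outside it. On 2RHet replicate 1 left 836 kb without a region, from 497959 to 1333832. On 3LHet its longest gap was 684 kb, from 710480 to 1394925, and replicate 2 had none in 852 kb from 710452 to 1562296. The 3RHet window was drawn around the regions of replicate 1, so its count in that replicate is a description only.

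On U the replicates shared a single stretch, from 8644920 to 8646916 (1997 bp), with a Jaccard index of 0.971 and scores at percentiles 86.3 in replicate 1 and 92.0 in replicate 2. It lay in the widest U region of replicate 2, 2011 bp from 8644906. The median U region stood at percentile 84.4 in replicate 1 and 60.4 in replicate 2, and 19 of 20 and 3 of 5 scored above the list median. In replicate 2 the 5 regions were spread over the list, at percentiles 29.6, 34.8, 60.4, 92.0 and 99.95, so the median there rests on few regions. It lay above the 22.5 of the autosomal arms and below the 68.6 of X. In replicate 1 the U median lay above both the 32.6 of the arms and the 74.4 of X, so U and X had no stable order. In the combined list the median U region stood at percentile 97.7. The widest combined region of U, 5201 bp from 6014052 to 6019252, touched replicate 2 alone.

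The combined list added far more regions to these sequences than the replicates held. Of the 326 combined regions, 105 (32.2%, Wilson 95% interval 27.4 to 37.5) touched a replicate region by at least 1 base, against 49.5% of the whole combined list. Replicate regions were all at least 1301 bp wide, whereas combined regions went down to 1001 bp, so the 2 width classes were kept apart at 1300 bp. Over 1300 bp, 93 of 165 (56.4%, interval 48.7 to 63.7) touched a replicate, against 67.8% of the whole list. At 1300 bp or less, 12 of 161 (7.45%, interval 4.31 to 12.6) did, against 8.33%. The narrow regions were thus supported near the background share, and the wider regions at a lower share than the background.

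By sequence, the supported share of regions over 1300 bp was 30 of 57 on chromosome 4 (52.6%, interval 39.9 to 65.0), 40 of 65 on the scaffolds of chromosomes 2 and 3 (61.5%, 49.4 to 72.4), 7 of 12 on XHet (58.3%, 32.0 to 80.7) and 16 of 30 on U (53.3%, 36.1 to 69.8). On the autosomal arms it was 68.2% (66.4 to 69.9). The interval of chromosome 4 lay below that of the arms, while those of the other 3 overlapped it, and no test of the difference was made. Over 1300 bp, both replicates supported 8 regions on chromosome 4 (14.0%) and 16 on the scaffolds of chromosomes 2 and 3 (24.6%). They supported 2 on XHet (16.7%) and 1 on U (3.33%), against 27.9% of the whole list and 23.1% on the autosomal arms. No region of 1300 bp or less touched both, and the same held for all 2018 such regions of the whole list.

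Supported regions were wider. On chromosome 4, combined regions over 1300 bp that touched a replicate had a median width of 2161 bp, against 1493 bp for the 27 that touched none. On the scaffolds of chromosomes 2 and 3 the medians were 3033 bp and 1717 bp. The whole list showed the same order, with 2273 bp and 1605 bp, as did the autosomal arms, with 2065 bp and 1577 bp. A wider region can more easily share 1 base with a replicate region, so this order is not particular to these sequences. Wider regions had higher scores on chromosome 4, where Spearman's rho was 0.607 over 57 regions over 1300 bp, close to the 0.587 over 2758 such regions of the autosomal arms. It was 0.319 over 65 regions of the scaffolds of chromosomes 2 and 3 and -0.0674 over 30 regions of U. These are correlations across regions of 1 list, given without a test.

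The share of narrow regions also differed by sequence. Regions of 1300 bp or less made up 24 of 81 on chromosome 4 (29.6%), close to the 31.4% of the autosomal arms, but 75 of 140 on the scaffolds of chromosomes 2 and 3 (53.6%) and 54 of 84 on U (64.3%). Next to the limit, the widest narrow region was on chromosome 4 from 77140 to 78438 (1299 bp), inside a replicate 2 region. It was followed by 1287 bp and 1285 bp on 2RHet from 2854026 and from 3173270. On the other side of the limit lay 1311 bp on U from 1225296, then 1313 bp and 1319 bp on chromosome 4 from 126096 and from 65746, none of which touched a replicate.

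**Figure D4:**
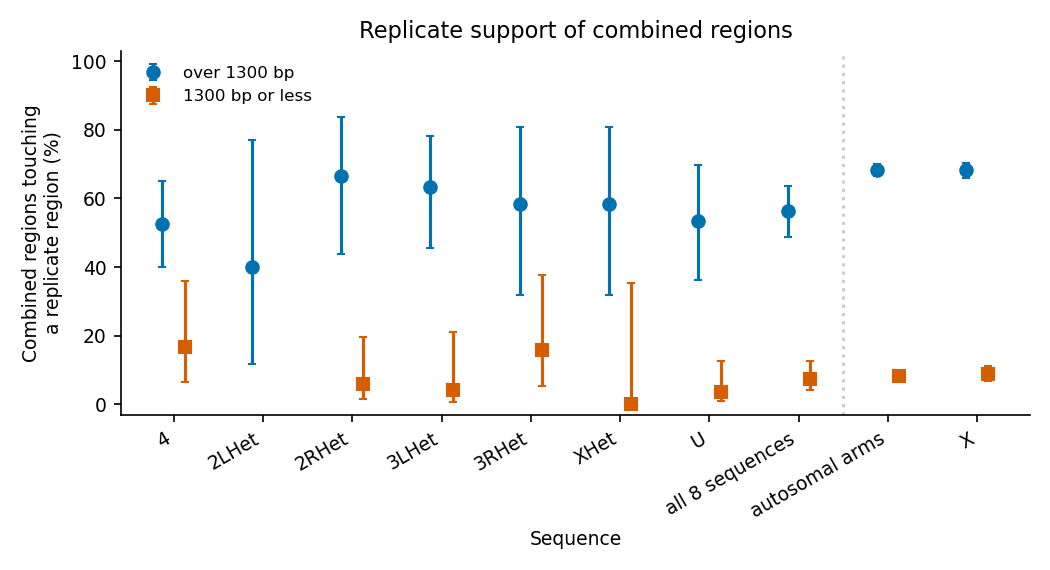
Percent of combined regions that touch a region of either replicate, with Wilson 95% intervals, for regions over 1300 bp (circles) and of 1300 bp or less (squares), by sequence. Over 1300 bp the 8 sequences together had 56.4% against 68.2% on the autosomal arms; at 1300 bp or less they had 7.45%.

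The highest replicate scores of these sequences were held by regions found in 1 replicate alone. Above percentile 95 of replicate 1 (5.00% of that list) were 6 of the 105 regions, and above percentile 95 of replicate 2 (5.04%) were 2 of 52, shares near the background. None of these 8 touched a region of the other replicate. Of the autosomal regions above that percentile 16 of 16 in replicate 1 and 12 of 12 in replicate 2 did, as did 146 of 148 and 97 of 97 on X. The comparison was made after the values were seen and carries no test.

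The 4 highest scores of the whole replicate 1 list were all on these sequences. They were 2.89 on U from 7681718 to 7683025, 2.47 on 2RHet from 226573 to 227927, 2.18 on U from 7447184 to 7449515 and 2.15 on U from 9169308 to 9170729. Of these, the region from 7447184 had a counterpart in the combined list, with a score of 1.38, and the other 3 touched no combined region. The remaining 2 of the 6 were on U from 6469016 to 6470870 (1.33) and on XHet from 94051 to 95970 (1.22). In replicate 2 the 2 regions were on U from 5436136 to 5437564 (1.95, the second highest of the list) and on 3LHet from 681445 to 682933 (1.59).

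Some replicate regions were missing from the combined list. In replicate 1, 10 of 105 (9.52%) touched no combined region, against 1.85% of the whole list, 2.10% on the autosomal arms and 0.939% on X. In replicate 2, 4 of 52 (7.69%) did not, against 3.41%, 5.70% and 1.71%. The difference was not tested, and in replicate 2 it rests on 4 regions. Of these 14 regions 6 were on U and 6 on 2RHet, with 1 each on 3LHet and chromosome 4. All 32 chromosome 4 regions of replicate 1 were in the combined list. The sources used here do not state how the authors built the combined list.

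In the combined list, 69 of the 326 regions (21.2%) lay above percentile 95 by score, against 5.01% of the whole list and 1.37% of the autosomal arms. U alone gave 46 of its 84 regions and chromosome 4 gave 1 of 81. The scaffolds of chromosomes 2 and 3 gave 19 of 140 and XHet 3 of 19. Of the 69, 52 were 1300 bp wide or less and 6 touched a replicate. U gave 34 of the 52 narrow ones. On X 192 of 204 regions above percentile 95 touched a replicate and 12 were narrow. On the autosomal arms 23 of 55 touched a replicate and 29 were narrow. Narrow or unsupported regions at the top of the list were thus not particular to these sequences.

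The 5 highest scored narrow regions were 4 on U with a score of 3.51 each, from 4667102, 9203748, 9563396 and 9879578, and 1 on 3LHet from 1122754 with 3.29, a score that 3 of the 326 regions shared. Each was exactly 1001 bp wide, the smallest width of the list. Over 1300 bp the highest was on 3LHet from 2226634 to 2228046 with 3.51, followed by 4 on U from 9429758 (3.03), 10044686 (1.88), 9177598 (1.81) and 9542988 (1.79). None of these 10 touched a replicate region. On YHet the combined regions ran from 214422 to 215476 with a score of 0.568 and from 327748 to 329162 with 0.803, and neither touched a replicate.

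Width at the minimum went with high scores on U. Regions of exactly 1001 bp made up 25 of its 54 narrow regions (46.3%), with a median score of 2.03. On the other 7 sequences they made up 12 of 107 (11.2%), with a median score of 1.09. On the autosomal arms they made up 10.3%, with a median score of 0.501. None of the 37 such regions on the 8 sequences touched a replicate. Few did elsewhere: 12 of 222 in the whole list and 9 of 130 on the autosomal arms, so this count does not set the 8 sequences apart. Of the 40 combined regions with a score over 2, 21 were on U and 3 on the scaffolds of chromosomes 2 and 3, 13 were on the autosomal arms and 3 on X. None of the 40 touched a replicate.

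**Figure D5:**
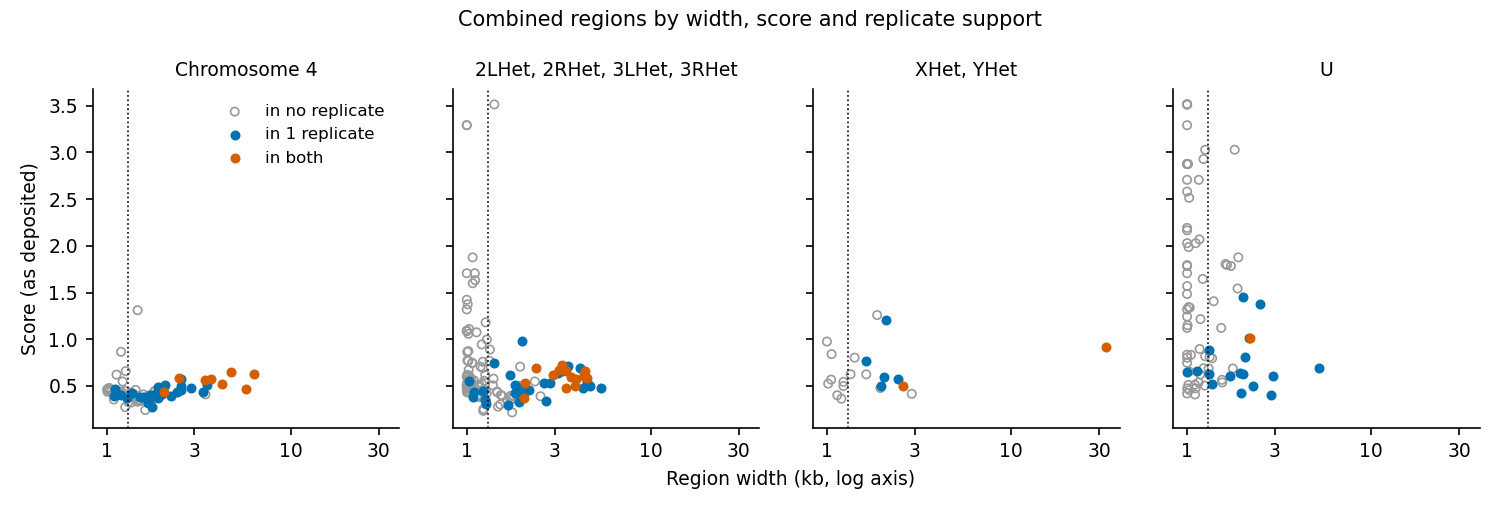
Score against width (log axis) for the 326 combined regions, by sequence group; open grey circles touch no replicate, blue circles touch 1 and orange circles touch both, and the dotted line is the width limit of 1.3 kb. Scores over 2 occur on U and on the scaffolds of chromosomes 2 and 3, in regions that touch no replicate, while chromosome 4 stays at or below 1.31.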

How the data were processed

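The samples were 2 H4K16ac ChIP replicates and 2 inputs. Per the labels, each input was the control of the ChIP list with its replicate number, and inputs are not analysed here on their own. Bowtie 0.12.7 appears as a tool in the processing notes of the submitters. No source used here states the region caller, its threshold or how the combined list was built. Coordinates follow FlyBase release 5, per the file headers. Each deposited region has a score without a stated unit, as deposited by the authors.

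Regions were taken by sequence name, and covered bases were counted once over the lengths in the file headers. An overlap of 1 base counted as touching. Intervals for shares are Wilson 95% intervals and cover counting error only. Depth is unknown. With 2 ChIP replicates no test across samples was made, and none over positions, so values carry SD (n = 2) or no error. The alternatives are given in the closing section. Counting was tested on simulated regions. Python 3.11.15, pandas 2.3.3 and scipy 1.17.1 were used. Regions were named by rule: every shared stretch of chromosome 4 and XHet, the widest elsewhere, both YHet regions, the 5 highest scored of each width class, and those nearest 1300 bp. The sequences and lists were chosen with earlier results of these data known. Genes and DNA sequence at these positions are not analysed here, since the gene table at hand is of release 6.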

Additional observations from a re-analysis of the deposited data

How the results depend on the processing

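No paired analysis was possible because the inputs carry no values of their own here, so no fit with the replicate number as a block can be made. Of 68 alternatives over 10 results, 34 moved the value by less than the spread or interval of the result and 34 by more. Of the first 34, 14 leave out 1 replicate of a mean of 2, which cannot move it by more than the SD, so they show nothing about stability. The cause was not tested for any. For the Jaccard index the interval was 0.107 to 0.366, a Wilson interval that takes the 36 merged regions of chromosome 4 as trials. A share of bases is not a count of such trials, so the entries of that index in the tally have no firm basis.

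Coverage of chromosome 4 was 3.34% in the mean of the replicates. It was 1.15% for bases in both replicates, 5.53% in either, 11.1% in the combined list, 9.08% in combined regions over 1300 bp and 0.458% for regions at or above the median score. For the scaffolds of chromosomes 2 and 3 the same settings gave 0.341%, 1.45%, 2.82%, 1.88% and 0.354%, against 0.895%. For U they gave 0.0199% in both, 0.399% in either, 1.15% combined and 0.579% combined over 1300 bp, against 0.209%. XHet had 30.8% in the combined list, 27.0% over 1300 bp and 6.85% without its widest regions, against 15.8%. With 1 replicate left out, coverage ranged from 1.89% to 4.79% on chromosome 4, 11.7% to 19.9% on XHet, 0.518% to 1.27% on the scaffolds of chromosomes 2 and 3 and 0.0822% to 0.337% on U.

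The ratio of chromosome 4 to the autosomal arms (mean 1.22, 1.21 to 1.22 with 1 replicate left out) was 0.997 for bases in both replicates, 1.28 in either, 1.47 combined, 1.49 combined over 1300 bp, 1.11 without the widest regions and 1.30 without 2R. It was 0.332 at or above the median score, where replicate 2 has no chromosome 4 region. XHet to X (0.557, range 0.495 to 0.618) was 0.691 combined, 0.647 combined over 1300 bp and 0.264 without the widest regions. The median width on chromosome 4 was 1763 bp in the combined list over 1300 bp, against 1851.5 bp (1836.5 to 1866.5 with 1 replicate left out). At or above the median score it could not be had, since replicate 2 has 0 chromosome 4 regions there.

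Support of combined regions over 1300 bp (56.4%, whole list 67.8%) was 66.7% with a limit of 1500 bp, where the whole list had 75.5%, and 67.9% at or above the median score, where it had 82.1%. With a single replicate to give support it was 21.2% to 51.5%, against 32.9% to 62.8% in the whole list. Support of narrower regions (7.45%, whole list 8.33%) was 2.83% at or above the median score, against 7.81%, and 3.11% to 4.35% with a single replicate, against 2.13% to 6.19%. The Jaccard index of the replicates on chromosome 4 (0.208) is bound to be 0 at or above the median score, for the same lack of replicate 2 regions, and that value says nothing about agreement. XHet without its widest regions still holds most pieces of the block in replicate 2. Depth is unknown, so it cannot be said which absent regions reflect few reads.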

Other observations

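Identical scores recurred among the combined regions. A score of 3.51 was shared by 9 regions of the list, 4 of them on U and 1 on 3LHet. A score of 2.88 was shared by 4 regions, all on U. Cutting U at its middle, after the values were seen, put 31 combined regions in the first part, 3 of them scored over 2 and with a median of 0.630. The rest held 53 regions, 18 of them scored over 2, with a median of 1.48. Positions on U have no chromosomal order.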
